A study of Mus musculus with 8 samples.

Results

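Cathepsins B, C, D, H, L, S and Z (genes Ctsb, Ctsc, Ctsd, Ctsh, Ctsl, Ctss and Ctsz) and legumain (Lgmn) are proteases of endosomes and lysosomes. They were followed by name in the count table, as 8 of its 32285 genes, through every immune cell type recovered from beta cell grafts. The grafts were NIT-1 cells, a beta cell line from NOD mice, either wild type (WT) or with a mutated renalase gene (Rnlsmut), placed under the skin of opposite flanks of NOD.scid mice. These hosts carry the scid mutation and so make no T or B cells of their own, but they keep their own myeloid and NK cells. All mice then received splenocytes of recently diabetic NOD mice, and CD45+ cells negative for propidium iodide, a dye that marks dead cells, were sorted from collagenase-digested grafts 10 or 17 days later. Host and donor cells cannot be told apart in these data, and the graft cells that carry the mutation were removed by the sort, so the libraries do not check the genotype. The number of Rnlsmut clones is not given in the sources used here.

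Each of the 4 groups (WT day 10, Rnlsmut day 10, WT day 17 and Rnlsmut day 17) was 1 droplet library of 3′ ends, so library and group cannot be told apart. Within a library, 4 hashtags, antibody-borne barcodes put on before pooling, marked 4 grafts. The graft was the replicate, which makes 16 grafts of 350 to 1967 cells and 1742746 to 9729233 UMIs (unique molecular identifiers, counted as molecules). The labels do not tie a hashtag to a mouse, so it is not known which WT and Rnlsmut graft shared a host. The table held 22441 cells in 29 clusters and 12 cell types, as the authors named them, and 42 of its 22399 barcodes (0.188%) occurred in more than 1 library. The names matched their defining transcripts for macrophages (C1qa 2163, Apoe 3144 UMIs per 1000000 UMIs of the type, or CPM), monocytes (Plac8 2116, Ly6c2 475), granulocytes (S100a8 20744), regulatory T cells (Treg; Foxp3 303) and NK cells (Ncr1 511). These are means of a whole type, and the macrophage clusters differed widely in C1qa and Apoe, as given further on. The type named Stem-Progenitor carried Top2a (1024), Mki67 (419) and Cd3e (567), the transcripts of dividing cells and of T cells. Insulin transcripts were at or near 0 in every type. B cells (35 cells) and mast cells (13 cells) were too few per graft, which left 10 types.

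Most cathepsins are cysteine proteases of the papain family, made as inactive precursors, carried to the lysosome by the mannose 6-phosphate route and activated there by acid. Cathepsin D differs in being an aspartic protease, and legumain cleaves after asparagine and trims the precursors of other cathepsins. In antigen-presenting cells these enzymes break down ingested protein into peptides, and cathepsins S and L also cut the invariant chain that blocks the groove of MHC class II. Cystatins and stefins inhibit the papain-like members, and the transcription factors TFEB, TFE3 and MITF bind an E-box in the promoters of many lysosomal genes.

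The 8 genes lie on 7 chromosomes (GRCm38, GENCODE M21). Ctsb (ENSMUSG00000021939) spans chr14:63122462-63145923, Ctsh (ENSMUSG00000032359) chr9:90054152-90076089 and Ctss (ENSMUSG00000038642) chr3:95526786-95556403, all on the plus strand. Ctsz (ENSMUSG00000016256) spans chr2:174427493-174439039 and Lgmn (ENSMUSG00000021190) chr12:102394084-102439813, both on the minus strand, and Ctsl (ENSMUSG00000021477) lies at chr13:64359337-64370890, also on the minus strand. Chromosome 7 holds both Ctsc (ENSMUSG00000030560), at chr7:88278085-88310888 on the plus strand, and Ctsd (ENSMUSG00000007891), at chr7:142375911-142388038 on the minus strand. Of the exon bases of Ctsd, 34.4% are shared on the same strand with Gm49369, and 6.09% of those of Ctsl with Gm49230. Neither of these overlapping genes was a row of the count table, so how reads in the shared bases were counted is not known.

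Promoters are shown because several members changed between the days in macrophages, Ctsd and Lgmn upward and Ctsc and Ctsz downward, as described further on. The part of the sequences below in these changes was not tested. RefSeq sequences (GRCm38.p6) of the 250 bases before the start were matched for 6 of the 8 genes, all but Ctsb and Ctsh, and searched on both strands for the E-box CACGTG and for GAGGAAGT, a sequence bound by the myeloid factor PU.1. The E-box was present for Ctsd, Ctsl and Lgmn, 3 of 6 genes (50%), against 1854 of 27025 promoters of all genes (6.86%). GAGGAAGT was found for Ctsc only (16.7% of the 6, against 2.79% of all), on the minus strand, so that its complement is printed. Each line gives 5′ to 3′ on the gene's strand with the match in capitals, and the second Ctsd match and the Ctsl match lie within GENCODE exons. The Lgmn match belongs to the second of its annotated starts.
Ctsd, chr7:142388039-142388077, minus strand, match 245 to 240 bases before the start: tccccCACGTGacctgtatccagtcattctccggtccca
Ctsd, chr7:142387908-142387937, minus strand, match 98 to 93 bases before the start: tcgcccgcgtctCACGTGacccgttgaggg
Ctsl, chr13:64370739-64370768, minus strand, match 236 to 231 bases before the start: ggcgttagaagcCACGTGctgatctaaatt
Lgmn, chr12:102439093-102439192, minus strand, match 49 to 44 bases before the start: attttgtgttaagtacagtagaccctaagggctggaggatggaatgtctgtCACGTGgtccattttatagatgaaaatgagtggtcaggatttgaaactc
Ctsc, chr7:88277894-88277993, plus strand, match 151 to 144 bases before the start: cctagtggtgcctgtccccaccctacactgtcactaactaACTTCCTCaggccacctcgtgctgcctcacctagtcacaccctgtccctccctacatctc

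All 8 genes had their highest mean level in macrophages. A level is given in CPM, the UMIs of a gene per 1000000 UMIs of the same graft and cell type, and since 3′ libraries count 1 end per molecule it was not divided by gene length. Together the 8 genes made up 1.07% ± 0.179 (SD, n = 16 grafts) of all macrophage UMIs, 0.598% ± 0.0914 (n = 15) of those of monocytes and 0.261% ± 0.0627 (n = 16) of those of dendritic cells (DC). In CD4 T cells, CD8 T cells and NK cells the share was 0.0665%, 0.0729% and 0.0621%. Pooled over all grafts, macrophages were 32.0% of the cells and held between 68.0% (Ctsc) and 88.8% (Lgmn) of the UMIs of each member. Over single grafts this share ranged from 34.0% to 93.7% for Ctsc, 44.1% to 97.9% for Lgmn and 23.3% to 95.6% for Ctsd. A share of UMIs also depends on the UMIs per cell, which differed between types. These levels describe the types the authors built from the same cells, and no test was made of them.

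**Figure D1:**
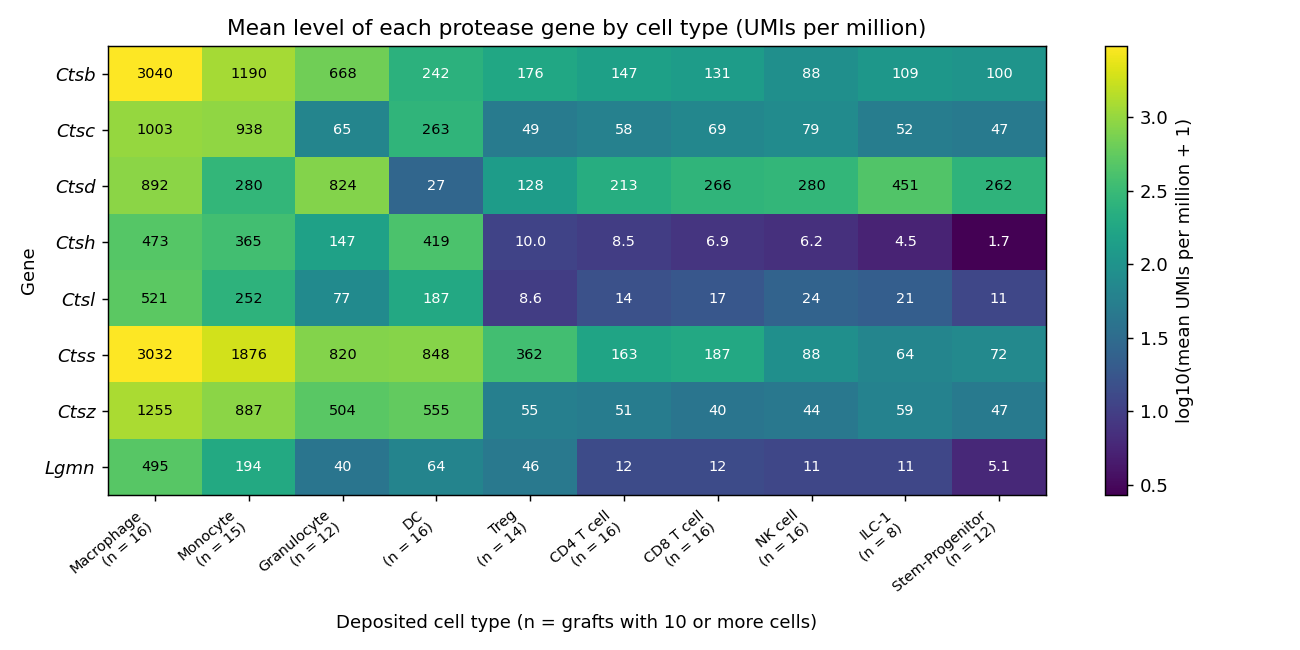
Heatmap of the mean level over grafts (CPM of the cell type, printed in each field, colour on a log scale) of the 8 genes in 10 cell types. The macrophage field is the highest for each gene, while Ctsd has its second highest field in granulocytes and its lowest in DC.

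The levels of the endopeptidases Ctsb, Ctss and Ctsl and of Lgmn fell steeply from macrophages to lymphocytes. Cathepsin B, an abundant cysteine protease of phagocytes, stood at 3040 ± 1080 CPM in macrophages (SD, n = 16), 1190 ± 242 in monocytes (n = 15) and 242 in DC, and at 87.6 to 176 in the lymphoid types. Cathepsin S, the main invariant chain protease of many antigen-presenting cells, stood at 3032 ± 665 in macrophages, 1876 ± 338 in monocytes and 848 ± 147 in DC (n = 16). It was also the member with the highest level in Treg, at 362 ± 60.4 (n = 14). Legumain went from 495 ± 181 in macrophages to 194 ± 55.2 in monocytes and 64.0 ± 45.8 in DC, with the last value within its SD of that in Treg (45.6 ± 23.1). Cathepsin L, at 521 ± 101 in macrophages, 252 ± 93.3 in monocytes and 187 ± 99.5 in DC, was under 25 in the lymphoid types.

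Cathepsins C, H and Z, which clip residues from the ends of peptides, differed from each other in how the myeloid types shared them. Cathepsin C, which activates the granule serine proteases of neutrophils and cytotoxic lymphocytes, stood at 1003 ± 299 in macrophages and 938 ± 315 in monocytes, a gap within the SD. It was far lower in DC (263 ± 108) and lower again in NK cells (78.9), CD8 T cells (68.8) and granulocytes (64.6). Cathepsin H stood at 473 ± 62.5 in macrophages, 419 ± 152 in DC and 365 ± 55.3 in monocytes, where neighbours in this order lay within their SD, and at under 10 in the lymphoid types. Cathepsin Z, a carboxypeptidase, stood at 1255 ± 193 in macrophages, 887 ± 209 in monocytes, 555 ± 169 in DC and 504 ± 239 in granulocytes (n = 12), the last of these again within the SD.

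Ctsd did not follow the other members. Cathepsin D stood at 892 ± 283 in macrophages, within the SD of granulocytes (824 ± 364, n = 12). Next came ILC-1, innate lymphoid cells, at 451 ± 123 (n = 8), then NK cells at 280, monocytes at 280 and CD8 T cells at 266. DC had the lowest level, 26.7 ± 13.5 with a range of 7.46 to 59.7 over 16 grafts. Across the 10 type means, the Pearson correlation of Ctsd with the other members ranged from -0.06 to 0.37, whereas all other pairs lay between 0.80 and 0.98. These 10 points share libraries and grafts, and the coefficients are a description without a test.

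By the same measure, taken over 8484 genes, the gene most like Ctsb was Lyl1 (r = 0.98), with Csf1r, the receptor for the macrophage growth factor CSF1, among the next (0.97). Cd68, a lysosomal glycoprotein of macrophages, was the closest to Ctsl (0.98) and Ly96, a partner of the endotoxin receptor TLR4, the closest to Ctss (0.98). Ctsh was closest to Cxcl9 (0.995), Ctsc to Mcub (0.99), Lgmn to Kif13a (0.97) and Ctsd to Wdr45b (0.90), while Ctsz was closest to Pdlim4.

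Among the T cells, Treg differed from CD4 T cells of the same graft in 3 members. In all of the 14 grafts with enough Treg, Ctss was higher in Treg (mean 362 against 162) and so was Lgmn (45.6 against 10.2, from 66 and 113 UMIs). Ctsd was lower in Treg in all 14 (128 against 220). Ctsb was higher in Treg in 11 of 14 grafts. No test was made here, and the share of all genes that differed in all 14 grafts was not computed.

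From day 10 to day 17, macrophages of both genotypes lost Ctsc and Ctsz and gained Ctsd and Lgmn, and those of Rnlsmut grafts also gained Ctsb. Lgmn levels in the 4 WT grafts were 414, 230, 352 and 321 on day 10 and 611, 557, 644 and 581 on day 17. In Rnlsmut grafts they were 433, 444, 232 and 289, then 815, 716, 689 and 591. The days did not overlap in either genotype. The share of all genes whose days did not overlap was not computed, here or for the other genes and cell types below. The log2 change was 0.69 (SE 0.19, adjusted p = 0.0127) in WT and 0.87 (SE 0.19, adjusted p = 0.00151) in Rnlsmut grafts. The test was the quasi-likelihood test of edgeR, adjusted by the Benjamini-Hochberg method for all 9331 genes that it covered, and the other adjusted p-values come from the same kind of fit.

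Cathepsin C moved the opposite way. In WT grafts Ctsc stood at 1200, 1242, 1101 and 1038 on day 10 and at 827, 716, 801 and 941 on day 17. In Rnlsmut grafts the values were 1648, 1398, 1189 and 1193, then 667, 543, 803 and 741. Every day 17 graft lay below every day 10 graft, and the log2 change was -0.65 (SE 0.14, adjusted p = 0.00344) in WT and -1.11 (SE 0.14, adjusted p = 2.13e-05) in Rnlsmut grafts.

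Cathepsin Z fell with it. Ctsz went from 1303, 1406, 1285 and 1367 to 1148, 1186, 1260 and 1138 in WT grafts and from 1600, 1527, 1394 and 1401 to 1015, 1118, 1057 and 882 in Rnlsmut grafts. The days did not overlap in either genotype, by a narrow margin in WT (1260 against 1285). The log2 change was -0.35 (SE 0.10, adjusted p = 0.0146) in WT and -0.67 (SE 0.10, adjusted p = 6.48e-05) in Rnlsmut grafts. The mean WT level on day 17 was 0.88 times that on day 10, a smaller fall than in the fit. The fit scales grafts by TMM and the levels do not, so they can differ. The WT call was lost without WT day 17 graft 1 (-0.32).

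Cathepsin D rose by about the same amount in both genotypes. Ctsd went from 648, 665, 639 and 680 to 1130, 841, 1468 and 912 in WT grafts and from 634, 918, 584 and 645 to 1162, 1395, 1099 and 846 in Rnlsmut grafts. The days did not overlap in WT, while in Rnlsmut graft 2 of day 10 lay above graft 4 of day 17. The log2 change was 0.55 (SE 0.18, adjusted p = 0.0291) in WT and 0.56 (SE 0.18, adjusted p = 0.0158) in Rnlsmut grafts. These 2 calls were the least stable. In WT the call was lost without any of the 4 day 10 grafts (0.52 to 0.57) and without day 17 graft 1 (0.55) or 3 (0.38), and in Rnlsmut it was lost without day 10 graft 3 (0.49) or day 17 graft 2 (0.44). Without WT day 10 graft 2 the Lgmn call in WT was lost as well (0.56).

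Cathepsin B passed the test in Rnlsmut grafts. Ctsb stood at 1640, 3051, 1381 and 1982 in Rnlsmut grafts on day 10 and at 4679, 4594, 4028 and 3929 on day 17, with no overlap and a log2 change of 0.97 (SE 0.20, adjusted p = 0.00119). In WT grafts it stood at 2375, 1916, 2683 and 2623, then at 3475, 2606, 4593 and 3085, where graft 2 of day 17 lay among the day 10 grafts. The log2 change in WT was 0.35 (SE 0.20, adjusted p = 0.226). The other 3 members did not pass in either genotype, with log2 changes of -0.05 (WT) and 0.29 (Rnlsmut) for Ctss, -0.14 and 0.23 for Ctsl and -0.08 and -0.23 for Ctsh. Their mean WT levels rose slightly (1.09, 1.02 and 1.07 times the day 10 level), where the fit gave small falls.

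In all, 4 of the 8 members passed in WT macrophages and 5 of 8 in Rnlsmut macrophages, where 25.1% and 42% of all tested genes passed. The summed share of all 8 in macrophage UMIs was 0.962% (WT) and 0.955% (Rnlsmut) on day 10 and at 1.12% and 1.25% on day 17.

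**Figure D2:**
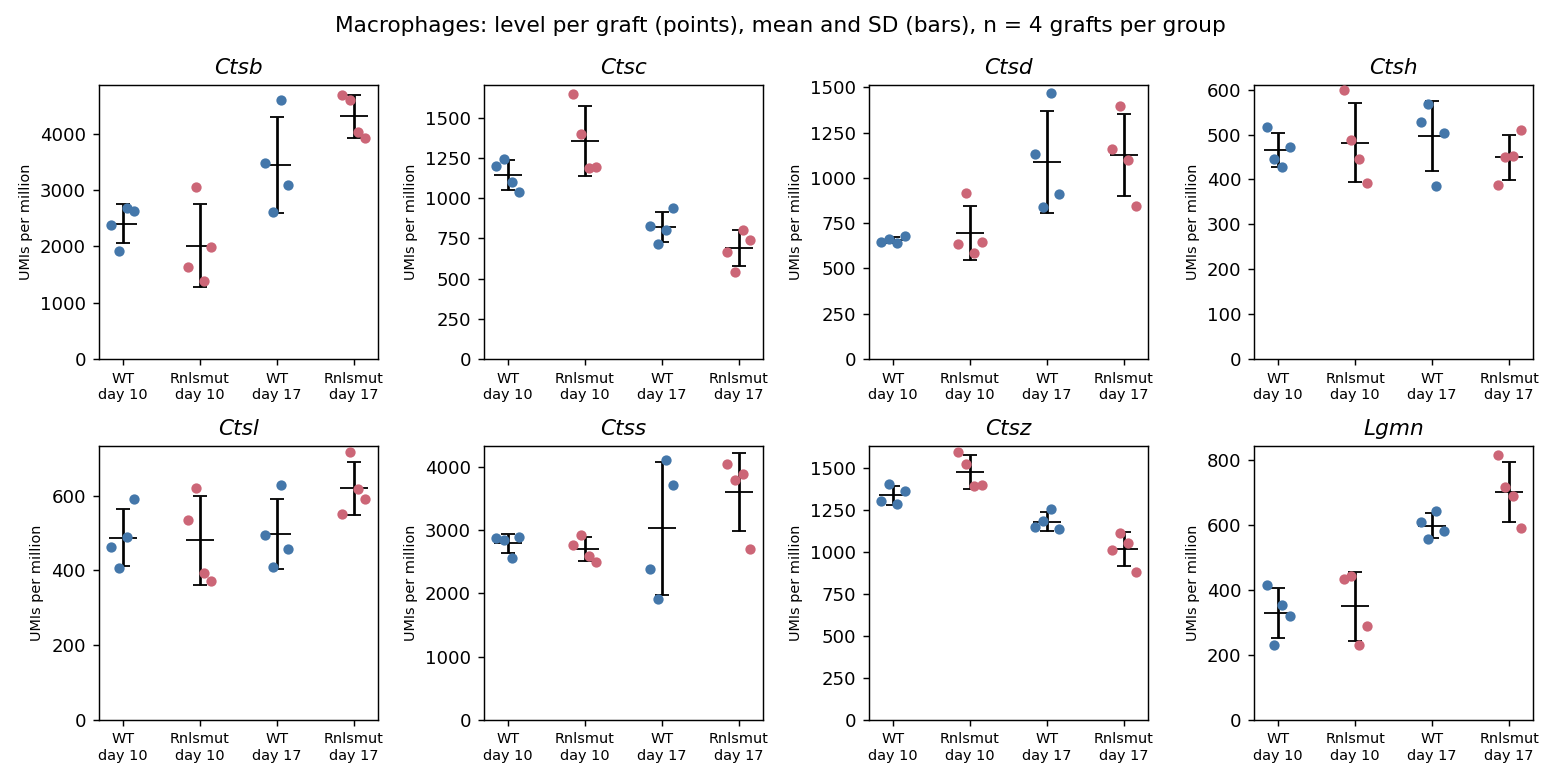
Levels of the 8 genes in macrophages (vertical axis, CPM of macrophages) in each of the 16 grafts by group, with each group's mean and SD (bars). Ctsc and Ctsz sit lower and Lgmn higher in every day 17 graft than in any day 10 graft of the same genotype, while the groups of Ctsh overlap throughout.

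The difference between the genotypes in this change was tested as an interaction, and 0 of the 8 members passed (0.0322% of all genes did). The estimates nearest to the threshold were those of Ctsb (log2 difference 0.62, SE 0.29, unadjusted p = 0.0446, adjusted p = 0.513), Ctsc (-0.46, SE 0.20, unadjusted p = 0.0338, adjusted p = 0.491) and Ctsz (-0.32, SE 0.14, unadjusted p = 0.035, adjusted p = 0.494), all by edgeR. Thus a call in Rnlsmut and none in WT, as for Ctsb, is not shown to be a difference between the genotypes.

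Comparing the genotypes within a day asks whether the graft's mutation goes with other protease levels in the macrophages that enter it, and in edgeR's fit 0 of the 8 members passed on either day. Of all genes, 0.0322% passed on day 10 and 0% on day 17, where 573 of the 9331 had an unadjusted p below 0.05. On day 17 the log2 difference, Rnlsmut minus WT, was 0.34 for Ctsb, 0.33 for Ctsl, 0.25 for Lgmn, -0.25 for Ctsc and -0.20 for Ctsz. On day 10 it was -0.28 for Ctsb and 0.22 for Ctsc. Two-sided exact permutation tests were made of the 8 levels on each day, 16 tests in all. Only Ctsz on day 17 had no overlap between the genotypes (mean 1018 in Rnlsmut against 1183 in WT). Its permutation test gave p = 0.0286, the smallest that 4 against 4 grafts can give, and an adjusted p of 0.366. The share of all genes without overlap between the genotypes was not computed, here or in CD4 T cells.

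**Figure D3:**
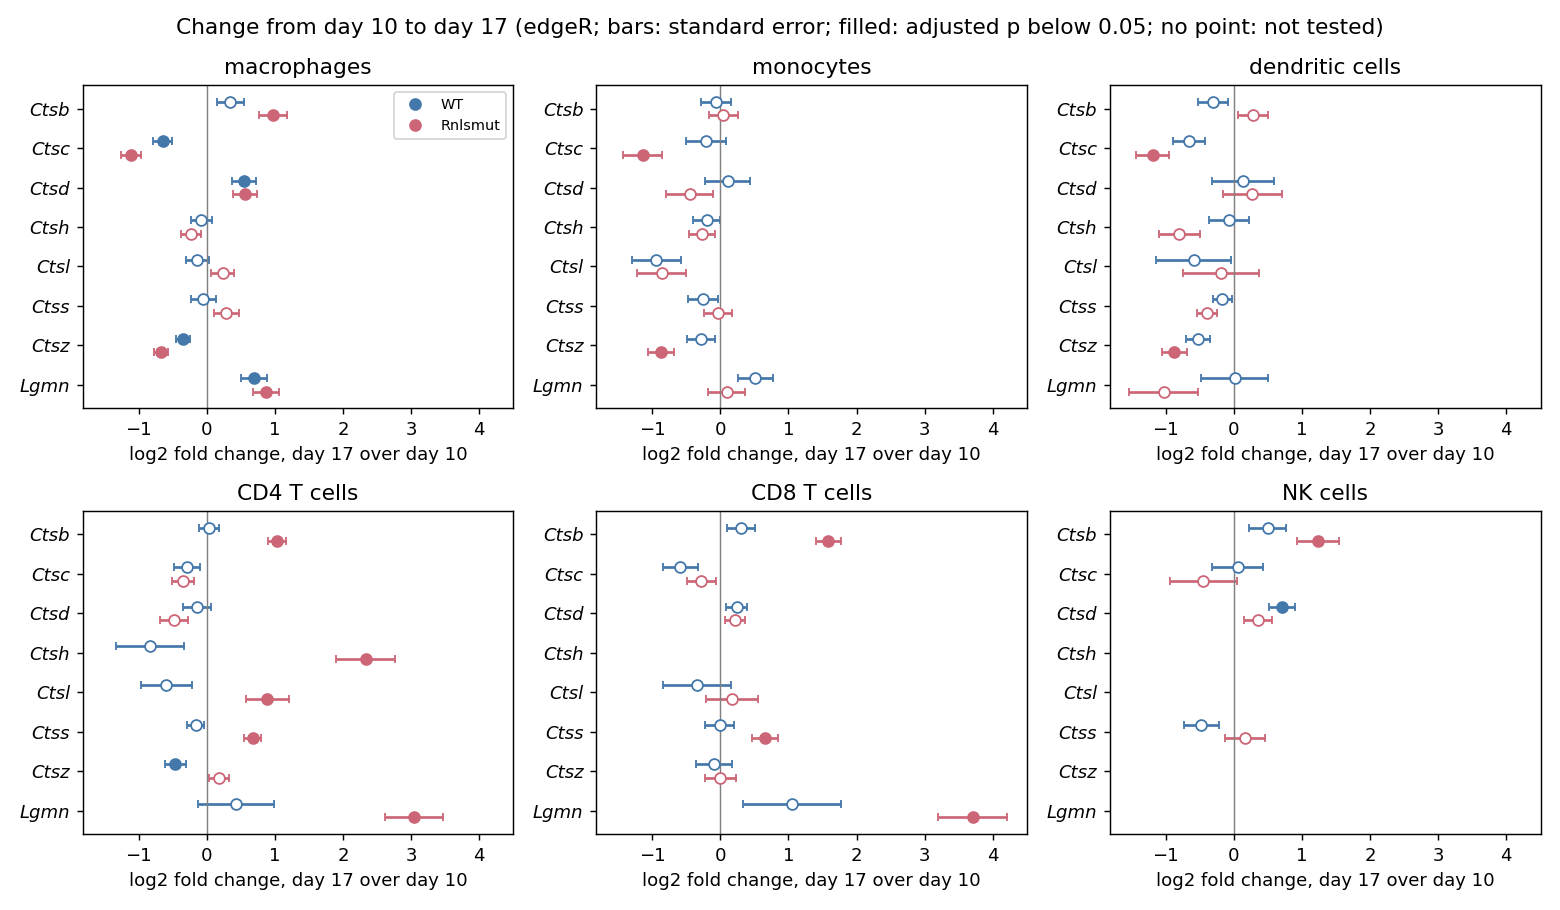
Log2 fold change from day 10 to day 17 (horizontal axis, with its standard error) of each gene in WT and Rnlsmut grafts in 6 cell types, filled where the adjusted p was below 0.05 and absent where the gene was not tested. Ctsc and Ctsz lie to the left of 0 in Rnlsmut macrophages, monocytes and DC, and Lgmn lies far to the right in Rnlsmut CD4 and CD8 T cells.

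Most macrophages belonged to other clusters on day 17 than on day 10. Clusters 4 (leading genes Inhba and Cxcl9) and 13 (Hspb1, Ccl4 and Jun) held 59.2% to 92.6% of a graft's macrophages on day 10. Clusters 2 (Cxcl13, Cd5l and Apoe), 5 (Gm26917 and Gm42418), 10 (Retnla, Fcrls and Ear2) and 12 (Ighg2b, Wfdc21, Igkc, Arg1 and Jchain) held 83.2% to 97.1% on day 17. By group, cluster 4 took 54.2% (WT) and 70.9% (Rnlsmut) of macrophages on day 10 and 8.28% and 5.07% on day 17, while cluster 2 went from 4.87% and 1.53% to 28.4% and 38.1%. With all cells pooled, C1qa stood at 386 CPM in cluster 4 and 4230 in cluster 2, and Apoe at 428 and 8093. The top 10 genes of clusters 4, 5, 10 and 12 held 0 of the macrophage markers used to check the names.

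The members' levels differed between these clusters. On day 10, the mean level of Ctsb over grafts was 1238 CPM in cluster 4 (n = 8) and 5232 in cluster 2 (n = 3), and that of Lgmn 210 and 555. On day 17 the same order held, with Ctsb at 2919 in cluster 4 (n = 5) and 5350 in cluster 2 (n = 8) and Lgmn at 315 and 887. For the genes that fell, the gap between these clusters differed between the days. Ctsc was higher in cluster 4 on day 10 (1260 ± 241 against 938 ± 50.6, SD). On day 17 the gap of Ctsc lay within the SD (759 ± 290 against 831 ± 155). Ctsz was level on day 10 (1482 and 1478) and higher in cluster 4 on day 17 (1789 against 954). Ctsd and Ctss were higher in cluster 2 than in cluster 4 on day 10 (1164 against 547, and 4035 against 2703). On day 17 their means were higher in cluster 4 (Ctsd 1732 ± 965 against 1239 ± 269, Ctss 4491 ± 1091 against 3368 ± 1040, SD). The day 17 gap of Ctsd, like that of Ctsc, lay within the SD, so a change of order is not shown for either gene. The clusters were built on all genes of these cells, so these levels are a description.

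**Figure D4:**
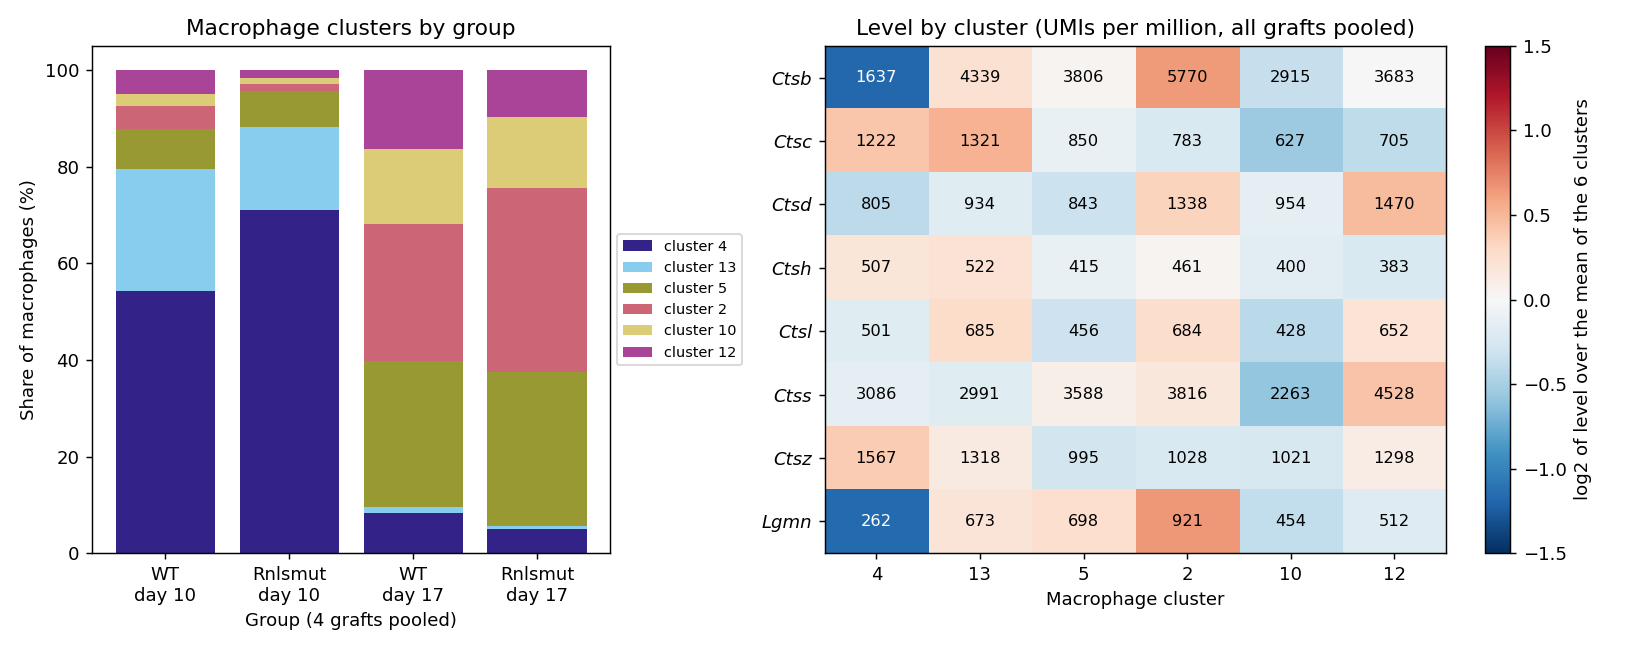
Left, share of macrophages (percent) in each cluster by group, as stacked bars. Right, level of each gene (CPM, cells of all grafts and both days pooled) by cluster, coloured by its log2 ratio to the mean of the clusters. Cluster 4 fills most of the bars of day 10, and in it Ctsb and Lgmn are at their lowest and Ctsz at its highest.

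Single clusters were also fitted alone, as an alternative chosen after seeing the data. In cluster 4 (13 grafts), Ctsd rose in both genotypes (log2 change 1.52, adjusted p = 0.0139, in WT and 1.65, adjusted p = 0.0021, in Rnlsmut grafts), in a fit where 3.92% and 8.95% of genes passed. Only 5 of the 13 grafts were of day 17, and their Ctsd levels were spread from 1012 to 3424 CPM. The WT day 17 grafts together held 120 cells of cluster 4, so the cluster 4 estimates for WT rest on few cells. In the Rnlsmut arm Ctsb (1.31, adjusted p = 0.0063) and Ctss (0.81, adjusted p = 0.003) rose and Ctsc fell (-1.24, adjusted p = 0.0046). Ctsz did not keep its direction there, at 0.29 in WT and 0.18 in Rnlsmut grafts, neither of which passed, and Lgmn did not pass (0.30 and 0.60). In cluster 5 (16 grafts, 3.45% and 11.3% of genes passed), 0 members passed in WT, with estimates of -0.32 for Ctsz, -0.35 for Ctsc, 0.34 for Ctsd and 0.43 for Lgmn. In Rnlsmut grafts Ctsb (1.31, adjusted p = 0.0138), Lgmn (1.10, adjusted p = 0.0378) and Ctss (0.79, adjusted p = 0.0496) rose, while Ctsc (-0.66, adjusted p = 0.0561), Ctsd (0.98, adjusted p = 0.0853) and Ctsz (-0.17, adjusted p = 0.666) did not pass.

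Macrophage depth also differed between groups, with a median of 7715 UMIs per macrophage in WT day 17 and 3630 in Rnlsmut day 17 grafts, against 5702 and 5746.5 in the day 10 groups. Its part in the results was not tested.

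The rest of the lysosomal machinery moved in both directions in the same macrophages, and the counts of the lists are to be read beside the 25.1% (WT) and 42% (Rnlsmut) of all genes that passed in either direction. Of 31 other hydrolases and their cofactors, 9 rose and 3 fell in WT (median log2 change 0.21, against 0.03 for all genes) and 15 rose and 3 fell in Rnlsmut grafts (0.33 against 0.02). Tpp1, a lysosomal peptidase, rose by 0.68 (WT) and 1.01 (Rnlsmut) on the log2 scale, Man2b1, which trims mannose, by 1.30 in Rnlsmut grafts, while Gla, an alpha-galactosidase, changed by -0.81 and -1.15 and Ppt1, a thioesterase, by -0.74 in WT. Of 24 membrane and acidification genes, 4 rose and 3 fell in WT and 7 rose and 6 fell in Rnlsmut grafts. In this list the proton pump subunits Atp6v0c (-0.45 and -0.79) and Atp6v1f (-0.36 and -0.46) fell and Laptm5, a lysosomal membrane protein, rose (0.62 in Rnlsmut grafts).

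Genes that make, deliver or restrain the proteases were fewer. Of 9 genes for delivery and transcription, 1 rose and 1 fell in WT and 3 rose and 1 fell in Rnlsmut grafts. Mitf rose by 0.99 and 1.08 and Tfe3 by 0.85 in Rnlsmut grafts, and M6pr, which carries precursors from the Golgi, changed by -0.82 and -0.66. Among 2 inhibitors tested, stefin B (Cstb) changed by -0.89 and -1.20, and cystatin C (Cst3) rose by 0.65 in Rnlsmut grafts. Of 3 other cathepsins tested, Ctsf rose in Rnlsmut grafts (2.35) and 0 passed in WT.

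MHC class II loading, which these proteases feed, held 9 tested genes, of which 0 rose and 1 fell in WT and 2 rose and 2 fell in Rnlsmut grafts. Ifi30, a lysosomal thiol reductase that opens disulfide bonds of ingested proteins, changed by -1.05 (WT) and -1.12 (Rnlsmut). In Rnlsmut grafts Ciita, the master regulator of MHC class II genes, rose by 0.91 and H2-Aa by 0.44. Between the genotypes, and in the interaction, 0 genes of these lists passed in macrophages. Of the matched promoters of these lists, the E-box was found in 6 of 26 hydrolases (23.1%), 4 of 18 membrane genes (22.2%), 3 of 7 delivery genes (42.9%), 2 of 5 other cathepsins (40%), 1 of 8 genes of MHC class II loading and 0 of 9 cystatins and stefins.

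Monocytes and DC of Rnlsmut grafts showed the same pair of falls, Ctsc and Ctsz. In monocytes, where 2 of 8 members passed in Rnlsmut and 0 in WT grafts (3.19% and 3.84% of 8092 genes), Ctsc stood at 1153, 1164, 1103 and 1120 in Rnlsmut grafts on day 10 and at 403, 321, 1005 and 633 on day 17. Ctsz stood at 1100, 1002, 1171 and 933, then at 545, 661, 693 and 730. The days did not overlap for either gene, although the day 17 values rested on only 16 to 39 monocytes per graft. The log2 change was -1.14 (SE 0.29, adjusted p = 0.033) for Ctsc and -0.87 (SE 0.20, adjusted p = 0.0193) for Ctsz. Each of these calls depended on single grafts, and neither passed without Rnlsmut day 10 graft 3, day 17 graft 1 or day 17 graft 2.

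In WT monocytes the same genes were spread on day 17. Ctsc stood at 974, 1059, 1082 and 1011 on day 10 and at 529, 1417 and 1091 in the 3 day 17 grafts with at least 10 monocytes. The lowest WT estimate was that of Ctsl (log2 change -0.94, adjusted p = 0.139), and Lgmn stood at 0.51 (adjusted p = 0.26). Without WT day 17 graft 3, 3 members passed in WT monocytes. Between the genotypes 0 members passed on either day (0% of genes on both days, with 199 and 410 genes at an unadjusted p below 0.05) and 0 passed in the interaction (0%, with 408 such genes).

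Monocytes too were of 2 clusters, whose shares moved between the days. Cluster 1 (leading genes Vcan, Chil3 and Ly6c2) held 83.8% (WT) and 76.7% (Rnlsmut) of monocytes on day 10 and 41.7% and 45.8% on day 17. Cluster 14 (leading genes Adgre4, Pparg and Ace) held the rest. Its top 10 genes held 0 of the few monocyte markers used to check the names and 1 marker of another type, which does not show that its name is wrong. The mean level per graft was higher in cluster 1 for Ctsc (1007 against 608), Ctsz (968 against 634) and Ctsl (288 against 163) and lower for Ctsb (1057 against 1649). Without cluster 14, Ctsz fell as before in Rnlsmut grafts (-0.80, adjusted p = 0.0451) and Ctsc did not pass (-1.14, adjusted p = 0.0716). Of the lysosomal lists, Asah1, the acid ceramidase, rose (0.78) and Ifi30 (-1.11), Atp6v0c (-0.87) and Atp6ap2 (-1.16), the last 2 parts of the proton pump, fell in Rnlsmut grafts.

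In DC, 2 of 8 members passed in Rnlsmut and 0 in WT grafts, where 14.6% and 10.2% of 5700 genes passed. Ctsc stood at 349, 376, 481 and 346 in Rnlsmut grafts on day 10 and at 179, 143, 238 and 53.0 on day 17, with only 4 UMIs behind the last value. Ctsz stood at 815, 693, 685 and 653, then at 404, 345, 396 and 384. Neither gene overlapped between the days, and the log2 change was -1.19 (SE 0.24, adjusted p = 0.00349) for Ctsc and -0.87 (SE 0.18, adjusted p = 0.00319) for Ctsz.

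The WT grafts lay in the same direction without passing. Ctsc went from 286, 303, 304.4 and 346 to 238, 130, 183 and 253 (log2 change -0.66, adjusted p = 0.0828) and Ctsz from 859, 578, 635 and 582 to 664, 443, 321 and 431 (-0.53, adjusted p = 0.056). For Ctsc the days did not overlap in WT. Between the genotypes 0 members passed on either day (0.0175% of genes on each), and 0 passed in the interaction (0.0351%).

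The DC were made of 4 clusters with very different protease levels. Cluster 25, led by Siglech, Ly6d and Ccr9, had a mean Ctsl level of 1966 CPM, against 13.1 to 64.4 in the other 3 clusters, and a Ctsb level of 1153 against 106 to 235. Cluster 21, led by Fscn1, Ccl22 and Ccr7, had the highest Lgmn (188) and, with cluster 25, the highest Ctsh (849 and 910). Cluster 17, led by Cd209a and Ccl17, had the highest Ctsc (486), Ctss (1264) and Ctsz (920). Cluster 19, led by Xcr1, Cd24a and Wdfy4, was the lowest in Ctsb (106), Ctsd (9.59), Ctsh (125), Ctss (527), Ctsz (358) and Lgmn (17.3).

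Cluster 19 rose from 22.3% (WT) and 18.6% (Rnlsmut) of DC on day 10 to 63.1% and 58.9% on day 17, while cluster 17 went from 43.4% and 39.3% to 17.1% and 13.1%. The part of this shift in the falls of Ctsc and Ctsz was not tested. Without cluster 25 both falls were still called in Rnlsmut grafts (-1.18 and -0.94), and Ctsh fell as well (-0.99, adjusted p = 0.0369, against -0.80 and 0.0819 with it). In the same DC, 7 of 21 other hydrolases rose and 0 fell in WT (median log2 change 0.57) and 11 rose and 0 fell in Rnlsmut grafts (0.66), among them Gm2a, an activator of ganglioside breakdown (1.44 and 1.40), and Psap, the precursor of the saposins (1.24 in Rnlsmut grafts). Of 11 MHC class II loading genes, 4 rose in each genotype, with 0 and 1 falling, among them H2-Eb1 (0.60 and 0.51) and H2-Oa (1.15 and 1.23). Of 22 membrane and acidification genes, 2 rose and 1 fell in WT and 1 rose and 4 fell in Rnlsmut grafts, with Atp6v0a1, a proton pump subunit, falling in both (-1.61 in Rnlsmut grafts) and Atp6v0c (-0.96) and Lamp1, a major lysosomal membrane protein (-1.21), falling in Rnlsmut grafts. Gnptab, which makes the mannose 6-phosphate tag, fell in both genotypes (-1.39 and -1.10), as did Cstb (-0.98 and -1.08), while Cst3 rose in both (0.92 and 0.79).

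CD4 T cells of Rnlsmut grafts had higher levels of 2 members than those of WT grafts on day 17, where 0.433% of 7858 genes passed. Ctss stood at 232, 257, 220 and 214 in Rnlsmut and 163, 124, 132 and 135 in WT grafts, and Ctsb at 208, 218, 232 and 232 against 135, 107, 192 and 115. Neither overlapped. The log2 difference was 0.74 (SE 0.13, adjusted p = 0.00442) for Ctss and 0.69 (SE 0.14, adjusted p = 0.0285) for Ctsb, and the Ctsb call was lost without any 1 of the 4 Rnlsmut day 17 grafts or of WT day 17 grafts 1, 2 and 4 (0.61 to 0.73). Lgmn (1.98, adjusted p = 0.0641), Ctsh (1.78, adjusted p = 0.168) and Ctsl (1.21, adjusted p = 0.279) did not pass. On day 10, 0 members passed (0.229% of genes did).

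Between the days, 5 of 8 members rose in Rnlsmut CD4 T cells and 1 fell in WT, where 22.5% and 20.7% of genes passed. Lgmn went from 4.72, 1.18, 2.01 and 5.32 to 21.1, 35.2, 26.0 and 46.5 (log2 change 3.04, adjusted p = 3.15e-05) and Ctsh from 7.07, 2.96, 3.02 and 0.968 to 15.6, 18.7, 14.01 and 18.6 (2.33, adjusted p = 0.000534). Both rest on few molecules, with 2 to 23 UMIs of Lgmn and 2 to 17 of Ctsh per graft over all 16 grafts. Ctsb (1.03, adjusted p = 1.24e-05), Ctss (0.67, adjusted p = 0.000438) and Ctsl (0.89, adjusted p = 0.0453) also rose. In WT grafts Ctsz fell (-0.46, adjusted p = 0.036). Whether these changes differed between the genotypes was not tested in CD4 T cells. The Ctsl and Ctsz calls were each lost in several of the alternative fits, among them DESeq2 and the fit without cluster 7. The top 10 genes of this CD4 cluster held 1 T cell marker and 2 markers of another type.

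Transcripts of myeloid cells moved in the same direction in these T cells. Of 8 such markers (Lyz2, Apoe, C1qa, C1qb, C1qc, Fcer1g, Tyrobp and Cd68), 7 were higher in Rnlsmut than in WT CD4 T cells on day 17 (log2 differences 1.57 to 2.65) and 8 of 8 rose between the days in Rnlsmut grafts (1.21 to 5.91). Their summed level in CD4 T cells was 101 to 157 CPM in Rnlsmut day 10 grafts and 1123 to 1376 in Rnlsmut day 17 grafts, against 233 to 280 and 310 to 398 in WT grafts, and 0 of the 8 were at 0 in any of the groups. H2-Aa, an MHC class II gene of antigen-presenting cells, was likewise higher in Rnlsmut CD4 T cells on day 17 (2.05). Their part in the members' changes was not tested.

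Set against the macrophages of the same group, the CD4 T cell level of 5 of these markers was 3.14% to 4.37% of the macrophage level in Rnlsmut day 17 grafts. Lgmn (4.58%), Ctsh (3.72%) and Ctsl (3.57%) lay near this range, Ctsb (5.17%) and Ctss (6.39%) above it and Ctsd (16.8%) well above it. In Rnlsmut day 10 grafts the markers lay at 0.41% to 0.73%, with Ctsh at 0.73% and Lgmn at 0.95%, whereas Ctsb (5.09%), Ctss (5.14%) and Ctsd (35.5%) lay far above. In Treg, Ctss was at 11.7% and 14.3% of the macrophage level in WT grafts on days 10 and 17 and at 11.98% and 10.8% in Rnlsmut grafts. Lgmn in Treg was at 13.6% and 3.95% in WT and at 17.4% and 6.88% in Rnlsmut grafts.

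**Figure D5:**
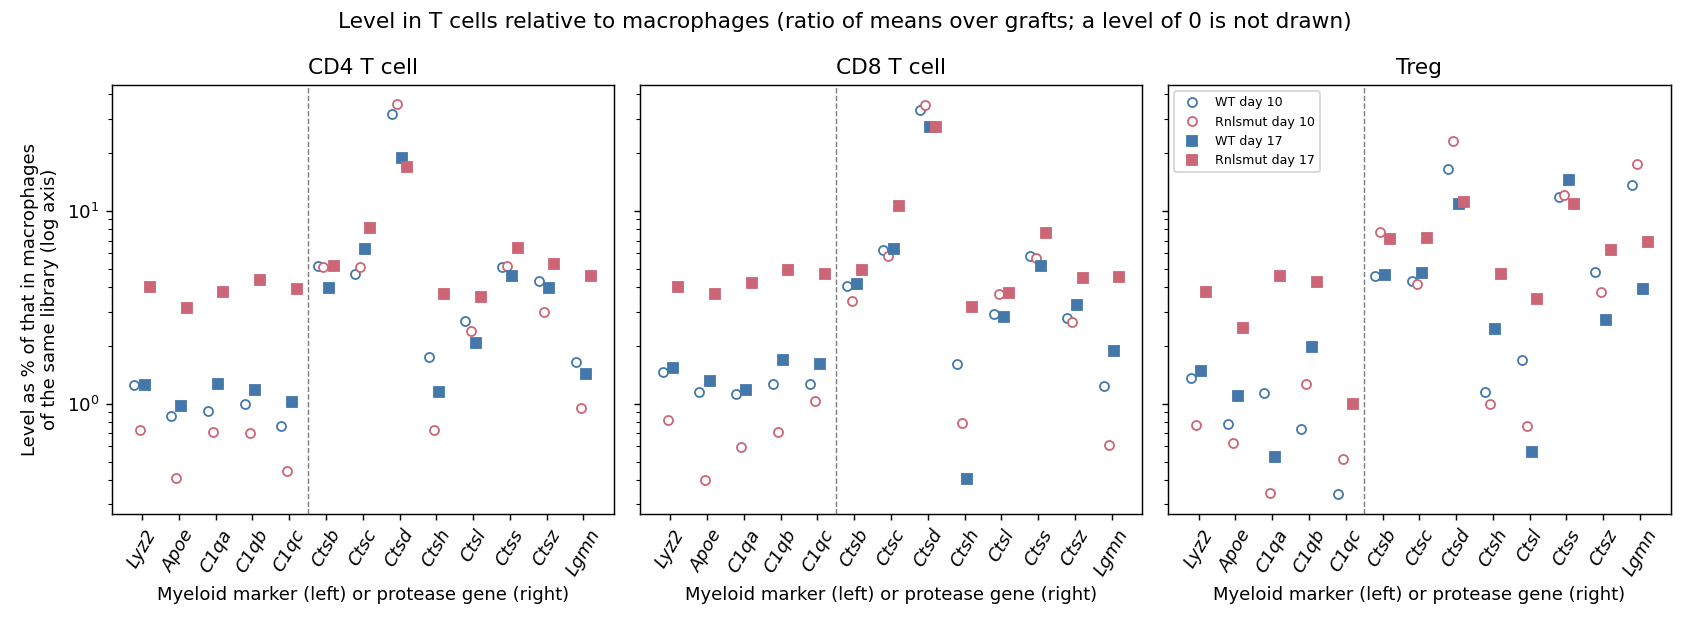
Level in T cells as a percent of the level in macrophages of the same group (vertical axis, log scale) for 5 myeloid markers and the 8 genes, in CD4 T cells, CD8 T cells and Treg. In Rnlsmut day 17 CD4 T cells the markers sit at 3.14% to 4.37% with Ctsh, Ctsl and Lgmn close by, while Ctsd lies above the markers in every group.

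CD8 T cells showed 3 rises between the days in Rnlsmut grafts and 0 calls in WT, where 10.5% and 11.7% of 6379 genes passed. Ctsb went from 77.7, 84.8, 57.3 and 52.6 to 213, 185, 233 and 221 (log2 change 1.58, SE 0.18, adjusted p = 4.02e-07). Lgmn went from 1.04, 0, 2.49 and 4.96 to 45.7, 32.0, 27.6 and 22.1 (3.70, SE 0.51, adjusted p = 1.17e-05), on 0 to 15 UMIs per graft. Ctss rose by 0.66 (adjusted p = 0.0297), a call lost without Rnlsmut day 10 graft 2 or 3 or day 17 graft 3 or 4. The 7 myeloid markers tested in CD8 T cells all rose as well (1.40 to 6.19). The summed level of the full list of 8 markers went from 146 to 179 on day 10 to 1105 to 1567 on day 17. Between the genotypes 0 members passed in CD8 T cells on either day (0.314% and 0.376% of genes did). Whether the change between the days differed between the genotypes was not tested in CD8 T cells or NK cells.

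In NK cells, where 4 members (Ctsb, Ctsc, Ctsd and Ctss) had enough counts to be tested, 1 passed in each genotype between the days, against 9.07% (WT) and 2.67% (Rnlsmut) of 3263 genes. Ctsd rose in WT grafts from 214, 152, 201 and 207 to 251, 328, 449 and 318 (log2 change 0.71, SE 0.19, adjusted p = 0.0202), a call lost without day 10 graft 2 (0.60) or day 17 graft 3 (0.49). Ctsb rose in Rnlsmut grafts from 25.1, 64.5, 77.2 and 68.3 to 162, 154, 117 and 104 (1.24, SE 0.32, adjusted p = 0.0343), a call lost in 5 of the fits that leave out a graft. The days did not overlap for either gene. Of the myeloid markers, Fcer1g and Tyrobp are also expressed by NK cells, and the summed level of the 8 was already 2031 to 2554 CPM in NK cells on day 10. Of the other 3 tested there, Apoe (4.77), C1qa (2.92) and Lyz2 (2.64) all rose in Rnlsmut grafts on the log2 scale, and their part in the change of Ctsb was not tested. Between the genotypes 0 members passed in NK cells (0.0306% of genes on day 10 and 0.184% on day 17). Ctsw, a cathepsin of cytotoxic lymphocytes, rose in WT NK cells (0.55).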

How the data were processed

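CD45+ cells of 16 grafts were measured by droplet 3′ RNA sequencing. The values deposited by the authors are raw counts of UMIs, by gene and cell, and each cell carries their cluster, cell type and hashtag. The submitters' processing notes name Cell Ranger and mm10, and further settings are not given in the sources used here. The members and gene lists were chosen with earlier results of these data known. Columns of other series numbered 0. Rnls and the hashtag counts were not analysed here.

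UMIs were summed per graft (library and hashtag) and cell type, keeping grafts with at least 10 cells of the type. Levels are UMIs per 1000000 of that sum. A quasi-likelihood model of edgeR 4.0.16 (R 4.3.3; TMM scaling, low counts removed by filterByExpr) held the 4 groups in 1 fit per type, and a gene was called at a Benjamini-Hochberg adjusted p under 0.05 over all genes tested. With nothing tying hashtags to separate animals, p-values measure the spread between these grafts. Macrophage levels were compared between genotypes by exact permutation (70 assignments a day, SciPy 1.17.1, pandas 2.3.3, NumPy 2.4.6, Python 3.11.15). On simulated data of the day 10 genotype comparison, with 200 genes changed by 1.5 on the log2 scale, edgeR recovered 175 in macrophages (with 6 false calls), 174 in monocytes (12), 169 in DC (8), 190 in CD4 T cells (13), 194 in CD8 T cells (11) and 184 in NK cells (9), and smaller changes were not simulated. The genes named beside the members were, in each comparison, at most 3 called genes of a list by smallest p, and the 3 genes of highest correlation with a member over the 10 types, at a mean level of at least 20 in 1 type. Alternatives were DESeq2 1.42.0 on the same counts, no filter on low counts, minimums of 1 and 20 cells, a hashtag block, the mean over cells, leaving out the 6% of cells of highest UMI count in each library and type as possible doublets (1326 cells; no doublet caller was run), leaving out each graft and, added after seeing the data, leaving out or fitting single clusters. Positions came from GENCODE M21, where 31424 gene names of the table (97.3%) were found.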

Additional observations from a re-analysis of the deposited data

Results flagged for a closer look

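Of 88 groups of 4 grafts checked for a graft far from the other 3, by Dixon's ratio of the gap to the group's range, 2 stood out, and chance flags about 1 in 20 groups. Ctss in macrophages of WT day 10 grafts was 2561.5 CPM in graft 3, while the other 3 grafts lay at 2840 to 2895. Ctsl in monocytes of Rnlsmut day 10 grafts was 254 CPM in graft 4, while the other 3 lay at 319 to 329. In the fits of whole cell types with all grafts, neither gene was called in these types between the days or the genotypes. Ctss was called between the days in Rnlsmut macrophages of cluster 4 alone and of cluster 5 alone, as given above.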

How the results depend on the processing

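Counts of members called kept within 1.5 times of the reported count except as follows. In macrophages, the WT count between the days of 4 became 1 in cluster 4 alone and 0 in cluster 5 alone, and 2 to 4 when 1 graft was left out (2 without WT day 10 graft 2 or day 17 graft 1), and the Rnlsmut count of 5 became 3 in cluster 5 alone. Ctsz in cluster 4 alone changed sign, to 0.29 in WT and 0.18 in Rnlsmut grafts. In monocytes, the WT count of 0 became 1 with no filter and 0 to 3 when 1 graft was left out, and the Rnlsmut count of 2 became 1 with a minimum of 1 or 20 cells or without cluster 14, and 0 to 3 when 1 graft was left out (0 without day 10 graft 3 or day 17 graft 1 or 2, and 1 without day 10 graft 2 or 4 or day 17 graft 4). In DC, the WT count of 0 became 2 under DESeq2 or with no filter, 1 with the hashtag block, a minimum of 20 cells or without the 6% of cells of highest UMI count, and 0 to 1 when 1 graft was left out (1 without Rnlsmut day 17 graft 4 or WT day 17 graft 1), and the Rnlsmut count of 2 became 4 with no filter. In CD4 T cells, the day 17 count between genotypes of 2 was 1 to 3 when 1 graft was left out, and the WT count between the days of 1 became 0 under DESeq2, with no filter, with the hashtag block, without cluster 7 or in the lowest of the fits without 1 graft. In CD8 T cells, the counts between genotypes of 0 became 1 with no filter (day 10), with a minimum of 20 cells (both days) or without WT day 17 graft 3 (both days), the WT count between the days of 0 became 1 without the 6% of cells, and the Rnlsmut count of 3 fell to 1 without day 10 graft 2 or 3. In NK cells, the WT count of 1 became 0 with no filter or without 1 graft, and the Rnlsmut count of 1 became 0 without the 6% of cells or without 1 graft. The 1 macrophage level without overlap between the genotypes became 2 without the 6% of cells, 0 as a mean over cells and 0 without 1 graft. The cause of these changes was not tested.

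Nothing in the labels ties same-numbered hashtags to a host, so the grafts were treated as unpaired. Of 47 pairs of same-numbered grafts, 13 correlated above 0.1. No differently numbered pairs are given beside them, so this count cannot decide whether the grafts were paired. The pair of hashtag 1 on day 10 correlated above 0.1 in all 6 cell types (0.146 to 0.335), a hint from the data and not from the design, under the same limit. With the block the counts moved only as given above. In monocytes of day 17, DC of Rnlsmut day 17 graft 4 and all lymphoid types, the counts of Ctsc, Ctsh and Lgmn limit the precision.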
